A study of Mus musculus with 12 samples.

Results

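Rhcg, Igfbp6, Dapl1 and Slc7a8 are 4 of 23235 gene symbols whose RNA was sequenced, after poly-A selection, in 12 libraries of the mouse strain FVB/NJ. They were chosen by their FPKM in papilloma: each was lower in every papilloma library given camphor white oil (CWO) than in every papilloma library given vehicle, and their levels in epidermis were then compared. CWO, a camphor tree distillate, was used at 20%, and acetone was the vehicle for both tissues. The papilloma CWO and papilloma vehicle groups came from mice shaved at 6 to 7 weeks of age. Papillomas, benign and pre-malignant growths of the skin, were started with DMBA (400 nmol, a carcinogen) and grown with TPA (10 nmol per dose, a tumour promoter). CWO or acetone was then applied for 6 weeks, and each library is a pool of 4 tumours from 1 mouse, with 3 mice in each group. The epidermis CWO and epidermis vehicle groups received a single 400 µL application of CWO or acetone, and the labels name no DMBA or TPA for them. Their epidermis was lifted off with ammonium thiocyanate after 24 h, and for each treatment the 3 samples whose RNA was most intact were sequenced. The epidermis samples are a separated layer of the skin, and the labels name no such separation for the tumours. Tissue, duration of treatment, DMBA and TPA, and tissue preparation go together between papilloma and epidermis and cannot be told apart.

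The 4 genes have different roles. Rhcg encodes an Rh family glycoprotein that carries ammonia and ammonium across membranes and is best known from the kidney collecting duct. Slc7a8 encodes LAT2, the light chain of a transporter that exchanges neutral amino acids and reaches the membrane with the heavy chain encoded by Slc3a2. Igfbp6 encodes a secreted protein that binds insulin-like growth factors (IGFs), with a preference for IGF-II, and limits their access to the IGF receptor. Dapl1 encodes a small protein related to death-associated protein, and it is also known as early epithelial differentiation-associated protein, from the cells that leave the basal layer of stratified epithelia.

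The promoters are shown because each of the 4 genes was chosen for being lower in the oil-treated papillomas, and they let the sequence just upstream of each start be compared. The genes are listed on mm9 at chromosome 7, positions 86738249 to 86762543 for Rhcg, and chromosome 14, positions 55341052 to 55400723 for Slc7a8. Igfbp6 is at chromosome 15, positions 101974617 to 101979943, and Dapl1 at chromosome 2, positions 59322710 to 59343078. All 4 symbols matched a RefSeq promoter on the GRCm38.p6 build. The 250 bases before each start are chr7:79617658-79617907 on the minus strand for Rhcg and chr14:54781887-54782136 on the minus strand for Slc7a8. They are chr15:102143936-102144185 on the plus strand for Igfbp6 and chr2:59484403-59484652 on the plus strand for Dapl1. Each runs 5′ to 3′ on the strand of its gene, and capitals mark the matches, on either strand, to the TATA box, the CCAAT box and the GC box.
Rhcg: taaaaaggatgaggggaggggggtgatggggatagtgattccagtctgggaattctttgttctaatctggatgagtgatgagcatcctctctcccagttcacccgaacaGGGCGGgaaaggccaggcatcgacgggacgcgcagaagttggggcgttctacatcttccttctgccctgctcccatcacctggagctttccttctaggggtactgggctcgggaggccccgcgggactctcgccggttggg
Slc7a8: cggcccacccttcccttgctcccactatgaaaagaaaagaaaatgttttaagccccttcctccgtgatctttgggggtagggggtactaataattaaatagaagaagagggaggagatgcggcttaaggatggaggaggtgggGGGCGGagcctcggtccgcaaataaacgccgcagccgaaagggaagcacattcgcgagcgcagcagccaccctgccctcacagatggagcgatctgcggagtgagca
Igfbp6: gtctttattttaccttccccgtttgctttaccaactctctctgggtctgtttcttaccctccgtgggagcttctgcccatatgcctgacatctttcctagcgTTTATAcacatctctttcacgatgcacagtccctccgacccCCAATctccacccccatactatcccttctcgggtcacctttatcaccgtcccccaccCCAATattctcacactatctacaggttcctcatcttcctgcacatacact
Dapl1: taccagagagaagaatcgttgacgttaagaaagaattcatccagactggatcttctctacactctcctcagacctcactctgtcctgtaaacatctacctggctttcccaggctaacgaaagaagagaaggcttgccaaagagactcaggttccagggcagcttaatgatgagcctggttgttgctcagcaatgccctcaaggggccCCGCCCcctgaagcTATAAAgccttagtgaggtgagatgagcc

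No motif of the search was shared by all 4 promoters. The GC box GGGCGG, the letters bound by Sp family factors, began 141 bases before the start in Rhcg, 107 in Slc7a8 and, on the reverse strand, 43 in Dapl1. It was not found in the Igfbp6 window, and 32.7% of 32851 RefSeq mouse promoter windows of the same length held it on either strand. Dapl1 held TATAAA 29 bases before its start, and Igfbp6 held its reverse complement at 148 bases, against 12.4% of all windows. Igfbp6 also held CCAAT at 107 and 50 bases, a pentamer present in 33.9% of all windows. The motif TGANTCA of AP-1, a factor family activated by TPA, was in none of the 4 and in 6.75% of all windows, and GCCNNNGGC of AP-2 was in none of the 4 and in 13.7%. Matches of different motifs did not overlap in these windows. GC content was 58.4% in Rhcg, 55.6% in Slc7a8, 49.6% in Igfbp6 and 50% in Dapl1, beside a median of 52.4% over all windows.

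Levels are FPKM, a level per length of transcript that is scaled to the fragments mapped in each library. Between 11.1 and 24.6 M (mega) fragments per library were recovered from the deposited values, and an FPKM of 1 was reached by 11838 to 12452 genes. All 8 keratinocyte markers were detected in every library, with list means between 9.76 and 10.8 on the log2(FPKM + 1) scale. The epidermis libraries also held skeletal muscle RNA. Its 8 markers summed to 2453 to 3142 FPKM in epidermis CWO and to 9124, 14810 and 2977 FPKM in epidermis vehicle libraries 1, 2 and 3. In papillomas they summed to 3.50 to 45.1 FPKM with CWO and 32.6 to 307 FPKM with vehicle, with 2 of the 8 at 0 in CWO libraries 1 and 3. In such bulk samples, fewer cells of a type and less RNA per cell cannot be told apart.

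The papilloma values that chose the 4 genes are given first as a description, without a test. In papillomas given CWO, Rhcg averaged 40.4% of its vehicle mean, Igfbp6 46.1%, Dapl1 55.0% and Slc7a8 73.6%. Of 12163 genes compared, 433 (3.56%) were lower in every CWO than every vehicle library and 369 (3.03%) were higher in every CWO library. With limma, an analysis of log2 values over all genes, 1 of 12179 genes (0.00821%) differed at an adjusted p under 0.05, and it was lower. That gene was Snora75, a small nucleolar RNA named here after its values were seen. At an unadjusted p under 0.05 there were 306 genes of the 12179. Replicates are pools from separate mice in papilloma. The labels call the epidermis replicates samples, so p-values measure the spread between these samples.

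**Figure D1:**
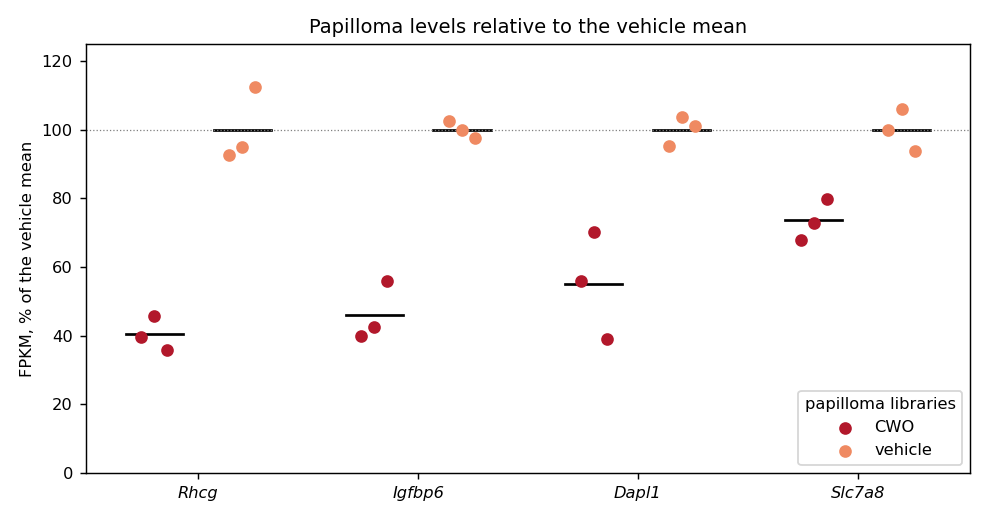
FPKM of each of the 4 genes in the 6 papilloma libraries, as a percentage of the mean of the 3 vehicle libraries (y axis, linear, from 0). Points are libraries, CWO left of vehicle for each gene, and lines are group means. The CWO means lie at 40.4% for Rhcg, 46.1% for Igfbp6, 55.0% for Dapl1 and 73.6% for Slc7a8, and every CWO point lies below every vehicle point of the same gene, as the choice of genes required.

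The distance between the groups differed among the 4 genes. Measured as the log2(FPKM + 1) of the lowest vehicle library minus that of the highest CWO library, it was 0.78 for Rhcg, 0.57 for Igfbp6, 0.43 for Dapl1 and 0.21 for Slc7a8. By this distance they were the 3rd, 5th, 7th and 24th of the 433 genes. Just inside the limit lay Ranbp6, with a highest CWO level of 5.704 FPKM and a lowest vehicle level of 5.705 FPKM. Just outside lay Fxr2, with 26.144 FPKM in its highest CWO library and 26.141 FPKM in its lowest vehicle library. The authors' deposited table for papilloma gives mean normalised counts of 79.3 with CWO and 194 with vehicle for Rhcg, and 30.4 with CWO and 65.5 with vehicle for Igfbp6. It gives 129 with CWO and 234 with vehicle for Dapl1 and 580 with CWO and 783 with vehicle for Slc7a8 in the same authors' deposited table. Its CWO to vehicle ratios were 0.409 for Rhcg, 0.465 for Igfbp6, 0.552 for Dapl1 and 0.741 for Slc7a8, from the same libraries as the FPKM, so they add no replicates.

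Of 10 lists of cell type markers, the macrophage and monocyte list was lower in every CWO than every vehicle papilloma library. Its 7 macrophage and monocyte markers found in the files had list means of 3.97, 3.95 and 4.04 on the log2(FPKM + 1) scale with CWO and 4.50, 4.18 and 4.18 with vehicle. Their summed level was 349 to 381 FPKM with CWO and 399 to 610 FPKM with vehicle, and none was at 0. None of the 7 passed limma, 1 had an unadjusted p under 0.05, and limma-voom on recovered fragments called 0. Skeletal muscle markers, whose list means overlapped between the groups, had a median log2 difference of -2.54, beside -0.25 for the macrophage list. Of 5 muscle markers tested, 0 passed limma and 3 had an unadjusted p under 0.05. Mast cell markers went the other way, at a median of 0.41, with 0 of 6 passing limma and 2 at an unadjusted p under 0.05. The part of macrophage, muscle or mast cell RNA in the papilloma values of the 4 genes was not tested. Summed fibroblast and dermal matrix markers were 383 to 582 FPKM with CWO and 355 to 518 FPKM with vehicle, overlapping ranges.

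Rhcg was detected in papilloma and listed at 0 in epidermis. Papilloma CWO libraries had 2.07, 2.40 and 1.87 FPKM, from 81, 76 and 61 fragments, and papilloma vehicle libraries had 4.84, 4.96 and 5.88 FPKM, from 140, 186 and 216 fragments. All 6 epidermis libraries, CWO and vehicle, held 0 fragments of Rhcg. A count of 0 allows up to 3 fragments, which is 0.0642 to 0.142 FPKM in these libraries and covers counting error only. The groups averaged 2.11 ± 0.265 FPKM in papilloma CWO and 5.23 ± 0.569 FPKM in papilloma vehicle (SD, n = 3 each). The order was thus papilloma vehicle, papilloma CWO, then both epidermis groups, which cannot be ordered. Taken over both treatments, the papilloma mean was at least 25.8-fold higher than the largest of the epidermis limits, taken per library.

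The tissue difference is the mean of both papilloma groups minus the mean of both epidermis groups, which is separate from the oil difference that chose the 4 genes. For Rhcg it was 2.13 on the log2(FPKM + 1) scale and is given without a test, since Rhcg passed the filter on low values through papilloma alone and so had to differ. Rhcg was higher in all 6 papilloma than in all 6 epidermis libraries, as were 26.7% of 13188 genes. The fitted size has no meaning as a fold, since it depends on the pseudocount: it was 5.10 with a pseudocount of 0.1, 1.11 with 3 and 7.76 with limma-voom on recovered fragments. Most genes differed between the tissues: 10452 of 13224 (79.0%) passed limma at an adjusted p under 0.05 (Benjamini-Hochberg), 4627 (35.0%) higher and 5825 (44.0%) lower in papilloma. No oil effect on Rhcg in epidermis could be tested, since no library detected it.

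Its closest relative went the other way between tissues. Rhbg, another ammonium-transporting Rh glycoprotein, averaged 19.4 ± 0.507 FPKM in papilloma CWO and 19.8 ± 2.05 FPKM in papilloma vehicle. In epidermis it averaged 52.3 ± 4.11 FPKM with CWO and 60.3 ± 3.18 FPKM with vehicle (SD, n = 3 each). The papilloma groups overlap each other and lie wholly below the epidermis groups. The tissue difference of Rhbg was -1.47 ± 0.0657 (SE, limma adjusted p = 1.18e-09). Rhcg amounted to 10.9 ± 1.35 FPKM per 100 FPKM of Rhbg in papilloma CWO and 26.6 ± 2.93 in papilloma vehicle (SD, n = 3 each). Rhag, the Rh glycoprotein of red blood cells, was below the filter, with group means of 0.0735 FPKM or less.

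Of 15 tested genes for Rh glycoproteins, ammonium handling and acid-base balance, 9 were higher in papilloma, 3 were lower and 3 did not pass, with a median log2 difference of 0.54 beside -0.09 over all genes tested. The carbonic anhydrase gene Car2 averaged 179 ± 69.2 FPKM in papilloma CWO and 172 ± 9.0 FPKM in papilloma vehicle, against 0.941 ± 0.122 FPKM in epidermis CWO and 0.595 ± 0.280 FPKM in epidermis vehicle (SD, n = 3 each). Its tissue difference was 6.61 on the log2(FPKM + 1) scale, and Car2 too passed the filter through papilloma alone. Its place among the 9 is therefore no test. The membrane-bound Car12 (2.55 ± 0.138), the sodium bicarbonate cotransporter gene Slc4a7 (2.35 ± 0.0969) and the water and glycerol channel gene Aqp3 (3.48 ± 0.195) were also higher in papilloma (log2, SE). In epidermis 2 of 14 tested genes of this list rose with CWO and 12 did not pass, beside 1.73% of all genes higher. They were Car9, a carbonic anhydrase, at 1.40 ± 0.203 (log2, SE), and Slc16a1, a lactate and monocarboxylate transporter, at 0.71 ± 0.135 (limma adjusted p = 0.0442). Car9 passed the filter through the CWO libraries, with 0.83, 0.99 and 1.19 FPKM in epidermis vehicle, so its place among the 2 is no test. Neither passed without the muscle-rich epidermis vehicle libraries 1 and 2, at limma adjusted p = 0.283 for Car9 and 0.773 for Slc16a1. Over 15 alternatives Car9 missed the threshold in 6 and Slc16a1 in 8. In papilloma 0 of 15 tested passed limma, with 0 at an unadjusted p under 0.05 and 0 by limma-voom.

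Slc7a8 was also mostly a papilloma transcript, but it was present at a low level in epidermis. Papilloma CWO libraries had 7.56, 8.11 and 8.89 FPKM, from 603, 523 and 589 fragments, and papilloma vehicle libraries had 11.1, 11.8 and 10.4 FPKM, from 655, 900 and 780 fragments. Epidermis CWO libraries had 0.501, 1.30 and 0.235 FPKM, from 34, 90 and 16 fragments, and epidermis vehicle libraries had 0.492, 0.261 and 0.652 FPKM, from 26, 11 and 61 fragments. Every papilloma library lay above every epidermis library, as for 26.7% of 13188 genes, and the epidermis groups overlapped. The means were 8.19 ± 0.668 FPKM in papilloma CWO and 11.1 ± 0.683 FPKM in papilloma vehicle, and 0.677 ± 0.552 FPKM in epidermis CWO and 0.468 ± 0.197 FPKM in epidermis vehicle (SD, n = 3 each).

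The tissue difference of Slc7a8 was 2.78 on the log2(FPKM + 1) scale, and the FPKM group means gave a papilloma level 16.9-fold above epidermis. It is given without a test, since 1 of 6 epidermis libraries reached an FPKM of 1 and Slc7a8 passed the filter through papilloma. The log2 value was 4.01 with a pseudocount of 0.1, 1.82 with 3 and 4.26 with limma-voom. In epidermis Slc7a8 was below the filter on low values, and the oil difference of 0.15 had an exact permutation p of 0.8, two-sided, where the smallest p that 3 against 3 libraries allow is 0.1. The direction differed among the CWO libraries, with library 2 above all vehicle libraries and library 3 below them.

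Slc3a2, the heavy chain partner, did not follow Slc7a8. It averaged 45.8 ± 4.72 FPKM in papilloma CWO and 50.4 ± 2.16 FPKM in papilloma vehicle, and 48.4 ± 2.66 FPKM in epidermis CWO and 48.1 ± 4.91 FPKM in epidermis vehicle (SD, n = 3 each). Its tissue difference was -0.01 ± 0.0700 (SE, limma adjusted p = 0.939; 95% interval half-width 0.153), with either sign depending on scaling. Slc7a8 therefore amounted to 18.0 ± 1.58 FPKM per 100 FPKM of Slc3a2 in papilloma CWO and 22.1 ± 1.23 in papilloma vehicle, against 1.39 ± 1.13 in epidermis CWO and 0.954 ± 0.321 in epidermis vehicle (SD, n = 3 each). The alternative light chain gene Slc7a5, which encodes LAT1, was 0.86 ± 0.0801 higher in papilloma (log2, SE, limma adjusted p = 7.77e-07). Per 100 FPKM of Slc7a5, Slc7a8 had 24.1 ± 3.86 FPKM in papilloma CWO and 35.6 ± 2.05 in papilloma vehicle, against 3.45 ± 2.81 in epidermis CWO and 2.95 ± 1.41 in epidermis vehicle (SD, n = 3 each).

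Among 16 amino acid transporter genes tested, 6 were higher in papilloma, 8 were lower and 2 did not pass, with a median of -0.32 beside -0.09 over all genes. The cationic amino acid transporter gene Slc7a1 was higher by 2.17 ± 0.0784. The light chain gene Slc7a6 was lower, at -2.22 ± 0.131 (log2, SE, limma). The aromatic amino acid transporter gene Slc16a10 (-1.97) and the large neutral amino acid transporter gene Slc43a1 (-1.76) are given without a test. Both passed the filter through epidermis alone, at papilloma group means of 0.424 to 0.698 FPKM. Slc7a2, also among the 8, did so too, at 0.513 FPKM in papilloma CWO and 0.789 FPKM in papilloma vehicle. Slc7a7, among the 6, passed through papilloma alone, at 0.459 FPKM in epidermis CWO and 0.534 FPKM in epidermis vehicle. The places of these genes among the 8 and the 6 are no test. In epidermis 0 of 15 tested passed limma for CWO against vehicle, with 1 at an unadjusted p under 0.05 and 0 by limma-voom. In papilloma 0 of 13 passed, again with 1 at an unadjusted p under 0.05 and 0 by limma-voom.

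Igfbp6 was more abundant in epidermis than in papilloma, and it was the only 1 of the 4 genes whose epidermis CWO libraries all lay below the epidermis vehicle libraries. Papilloma CWO libraries had 1.33, 1.43 and 1.87 FPKM, from 30, 26 and 35 fragments, and papilloma vehicle libraries had 3.43, 3.35 and 3.27 FPKM, from 57, 72 and 69 fragments. Epidermis CWO libraries had 6.63, 2.96 and 4.27 FPKM, from 127, 58 and 82 fragments, and epidermis vehicle libraries had 19.9, 18.2 and 6.75 FPKM, from 296, 216 and 178 fragments. Epidermis vehicle libraries 1 and 2 stood far above the other 10 libraries, while vehicle library 3 lay just above the highest CWO library. The means were 1.55 ± 0.288 FPKM in papilloma CWO and 3.35 ± 0.0801 FPKM in papilloma vehicle, and 4.62 ± 1.86 FPKM in epidermis CWO and 14.9 ± 7.13 FPKM in epidermis vehicle (SD, n = 3 each). The epidermis CWO and papilloma vehicle libraries overlapped, and the other neighbours in this order did not.

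The oil effect on Igfbp6 in epidermis did not pass limma. It was -1.43 ± 0.390 on the log2(FPKM + 1) scale (SE; 95% interval -2.33 to -0.53; limma adjusted p = 0.133), with all 3 CWO libraries below all 3 vehicle libraries, as for 6.67% of 12287 genes. Of 12311 genes, 233 (1.89%) passed, 213 higher and 20 (0.162%) lower with CWO. The adjusted p over the alternatives ran between 0.00398 and 0.972. The effect passed without vehicle library 3, at -1.88 (limma adjusted p = 0.00398), and when all 12 libraries shared one fit (limma adjusted p = 0.0288). Without vehicle libraries 1 and 2 it was -0.52 (limma adjusted p = 0.972), with the lone vehicle library assumed to vary like the CWO libraries.

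Markers of other cell types moved with Igfbp6 in these libraries. All 8 skeletal muscle markers had an unadjusted p under 0.05 in epidermis, with a median log2 difference of -1.42 for CWO against vehicle, and 0 passed the adjusted threshold by limma or limma-voom. The 8 fibroblast and dermal matrix markers had list means of 2.16, 1.72 and 2.02 on the log2(FPKM + 1) scale in epidermis CWO and 3.33, 2.84 and 2.31 in epidermis vehicle, groups that did not overlap. They summed to 22.7 to 34.2 FPKM with CWO and 38.1 to 105 FPKM with vehicle, and none was at 0. Of the 7 tested, 1 was lower by limma and 6 had an unadjusted p under 0.05, while limma-voom called 0, as did limma without vehicle libraries 1 and 2. Summed markers of peripheral glia were 22.2 to 23.9 FPKM with CWO and 25.8 to 37.6 FPKM with vehicle, and summed sebaceous gland markers ran the other way, at 3241 to 3742 FPKM with CWO and 2342 to 2726 FPKM with vehicle. The part of muscle, fibroblast, glial or sebaceous RNA in the epidermis values of Igfbp6 was not tested.

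**Figure D2:**
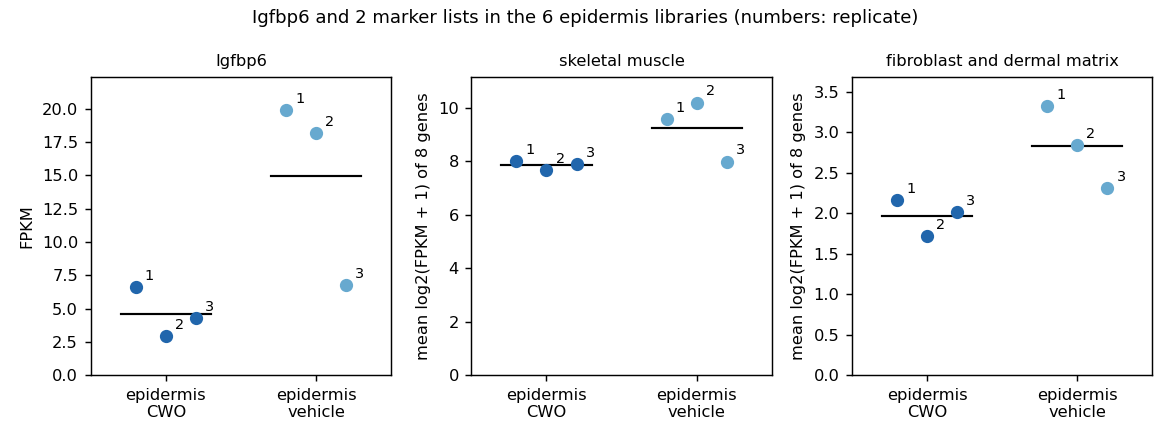
Igfbp6 (FPKM) and the mean log2(FPKM + 1) of 8 skeletal muscle and 8 fibroblast and dermal matrix markers in the 6 epidermis libraries, with CWO left of vehicle, replicate numbers beside the points and lines at the group means. Vehicle libraries 1 and 2 are the highest in all panels, with 19.9 and 18.2 FPKM of Igfbp6, and vehicle library 3, at 6.75 FPKM, lies near the CWO libraries.

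Between tissues Igfbp6 was lower in papilloma. The difference was -1.42 ± 0.230 on the log2(FPKM + 1) scale (SE; 95% interval -1.92 to -0.92; limma adjusted p = 0.000106), and -0.96 (limma adjusted p = 0.000609) without epidermis vehicle libraries 1 and 2. A larger decrease was seen for 1284 genes (9.71%). All 8 skeletal muscle markers and all 8 sebaceous gland markers were lower in papilloma too, with medians of -6.80 and -3.19 on the log2 scale. Fibroblast and dermal matrix markers ran the other way, with 6 of 8 higher in papilloma and 0 lower. The part of these cells in the tissue difference of Igfbp6 was not tested.

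The other IGF binding protein genes moved in both directions between the tissues. Igfbp3 (-1.21 ± 0.133), Igfbp4 (-0.68 ± 0.118) and Igfbp5 (-2.12 ± 0.337) were lower in papilloma, and Igfbp2 (0.85 ± 0.233) and Igfbp7 (2.77 ± 0.204) were higher (log2, SE, limma). Igfbp2 did not pass in 1 of 22 alternatives, at 0.11 in the CWO libraries alone (limma adjusted p = 0.762). Igfbp6 made up 0.731 ± 0.131% of the summed FPKM of Igfbp2 to Igfbp7 in papilloma CWO and 1.58 ± 0.0276% in papilloma vehicle, against 2.04 ± 0.714% in epidermis CWO and 5.79 ± 2.63% in epidermis vehicle (SD, n = 3 each). The summed level itself was 155 to 256 FPKM in papilloma CWO and 209 to 215 FPKM in papilloma vehicle. It was 193 to 246 FPKM in epidermis CWO and 235 to 290 FPKM in epidermis vehicle.

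The RNA of the ligands of Igfbp6 reached at most 2.46 FPKM as a group mean, and their proteins were not measured. Igf2, which encodes the preferred ligand IGF-II, was below the filter, at 0.848 FPKM in papilloma CWO, 0.539 FPKM in papilloma vehicle, 0.331 FPKM in epidermis CWO and 0.454 FPKM in epidermis vehicle. Igf1 was higher in papilloma, by 1.29 on the log2(FPKM + 1) scale, having passed the filter through papilloma alone, at group means of 2.46 FPKM in papilloma CWO and 2.41 FPKM in papilloma vehicle, against 0.253 FPKM in epidermis CWO and 0.579 FPKM in epidermis vehicle. The receptor gene Igf1r did not pass between tissues, at 0.10 ± 0.0862 (limma adjusted p = 0.307), but it passed with median-ratio scaling, at 0.19 (limma adjusted p = 0.0344). Igf2r, which encodes the receptor that clears IGF-II, was higher by 1.71 ± 0.108 (log2, SE, limma). The signalling adaptor gene Irs1 was lower, at -1.97, given without a test since it passed the filter through epidermis. Its group means were 0.832 FPKM in papilloma CWO and 0.931 FPKM in papilloma vehicle, against 6.02 FPKM in epidermis CWO and 6.62 FPKM in epidermis vehicle. Another adaptor gene, Irs2 (0.45 ± 0.107), and the protease gene Htra1 (0.43 ± 0.129) were higher, and each missed the threshold in 1 of 22 alternatives. Of 12 tested IGF system genes, 6 were higher in papilloma, 4 were lower and 2 did not pass, with a median of 0.27 beside -0.09 over all genes. Igf1 among the 6 and Irs1 among the 4 passed the filter through 1 tissue, so these calls are no test. For the oil, 0 of 11 passed limma in epidermis, with 1 at an unadjusted p under 0.05. In papilloma 0 of 11 passed, with 0 at an unadjusted p under 0.05, and limma-voom called 0 in both tissues.

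Dapl1 was among the abundant transcripts of epidermis and had a far lower level in papilloma. Papilloma CWO libraries had 19.6, 24.6 and 13.6 FPKM, from 149, 151 and 86 fragments, and papilloma vehicle libraries had 33.4, 36.4 and 35.5 FPKM, from 187, 264 and 252 fragments. Epidermis CWO libraries had 631, 616 and 819 FPKM, and epidermis vehicle libraries had 747, 835 and 874 FPKM. The vehicle papillomas lay close together, the CWO papillomas varied more, and the epidermis groups overlapped. The means were 19.3 ± 5.49 FPKM in papilloma CWO and 35.1 ± 1.53 FPKM in papilloma vehicle, and 688 ± 113 FPKM in epidermis CWO and 819 ± 64.9 FPKM in epidermis vehicle (SD, n = 3 each). Ranked by FPKM within a library, Dapl1 was between the 3528th and 5449th gene in papilloma CWO and the 2390th and 2627th in papilloma vehicle. In epidermis it was between the 108th and 147th with CWO and the 85th and 108th with vehicle.

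The tissue difference of Dapl1 was -4.81 ± 0.124 on the log2(FPKM + 1) scale (SE, limma adjusted p = 2.25e-11), and the epidermis FPKM mean was 27.7-fold the papilloma mean. Only 45 of 13224 genes (0.340%) had a larger decrease. Of the 8 keratinocyte markers, 2 were higher and 4 lower in papilloma, with a median of -0.13. All 8 skeletal muscle markers (median -6.80) and all 8 sebaceous gland markers (median -3.19) were lower in papilloma, as Dapl1 was, and the part of those cells in its difference was not tested. In epidermis the oil effect on Dapl1 was -0.26 ± 0.149 (SE; 95% interval -0.60 to 0.08; limma adjusted p = 0.503), and the adjusted p ran between 0.267 and 0.972 over the alternatives. On the same scale the papilloma difference was -0.87, and the gap between these values was not tested, since the papilloma value chose the gene.

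Genes of early epidermal differentiation did not share one direction. Of 20 tested, 9 were higher in papilloma, 8 were lower and 3 did not pass, with a median of 0.15 beside -0.09 over all genes. Without epidermis vehicle libraries 1 and 2 the counts were 7 higher and 7 lower. Krt77, a keratin of suprabasal epidermis, averaged 13.4 ± 7.83 FPKM in papilloma CWO and 79.2 ± 35.0 FPKM in papilloma vehicle, against 5053 ± 375 FPKM in epidermis CWO and 5409 ± 1032 FPKM in epidermis vehicle (SD, n = 3 each). Its papilloma libraries had 5.82, 21.5 and 12.9 FPKM with CWO and 72.2, 117 and 48.2 FPKM with vehicle. The CWO libraries were thus all below the vehicle libraries, as for 433 of 12163 genes (3.56%). For Dapl1 the choice of genes required this. Mt4, a metallothionein of stratified squamous epithelium, had 27.1, 55.1 and 34.5 FPKM in papilloma CWO and 46.0, 73.0 and 71.6 FPKM in papilloma vehicle, which overlap. The tissue differences were -7.38 ± 0.269 for Krt77 and -4.27 ± 0.172 for Mt4, and Sfn, which encodes the epithelial 14-3-3 protein stratifin, and Grhl3, which encodes a transcription factor of barrier formation, were higher by 1.26 ± 0.110 and 1.14 ± 0.101 (log2, SE, limma). Dap, the relative that gave Dapl1 its name, did not pass, at -0.18 ± 0.112 (limma adjusted p = 0.160). For the oil, 0 of 20 passed limma in either tissue, with 1 in epidermis and 4 in papilloma at an unadjusted p under 0.05, and limma-voom called 0 in both.

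**Figure D3:**
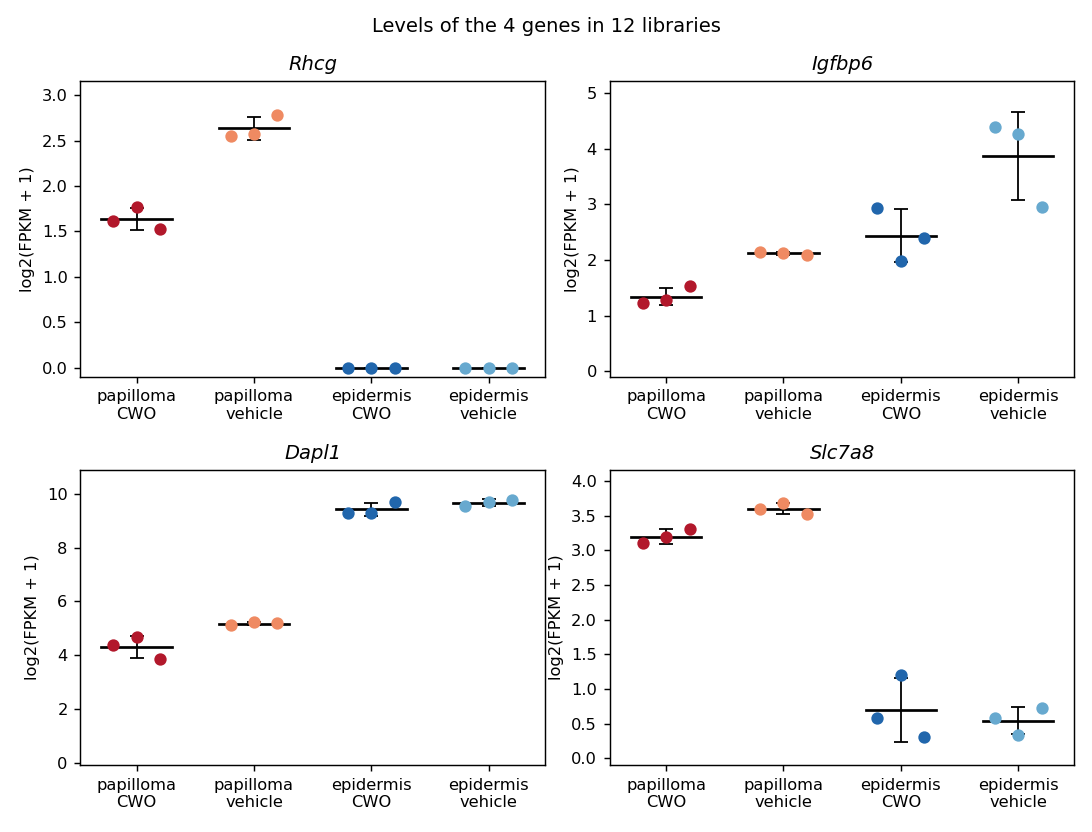
Levels of Rhcg, Igfbp6, Dapl1 and Slc7a8 as log2(FPKM + 1) in 12 libraries, with papilloma left of epidermis and CWO left of vehicle within each tissue. Points are libraries, lines are means and bars are SD (n = 3). Rhcg is at 0 in all 6 epidermis libraries and Slc7a8 is lower there than in papilloma, whereas Dapl1 and Igfbp6 are higher in epidermis.

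The 4 genes thus split by tissue: Rhcg and Slc7a8 were higher in papilloma than in epidermis, and Igfbp6 and Dapl1 were lower. The differences of Igfbp6 and Dapl1 passed limma, as did 44.0% of all genes in that direction, and kept their direction and call in all 22 alternatives. Being lower in the oil-treated papillomas went with higher levels in papilloma for 2 genes and with lower levels for the other 2.

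**Figure D4:**
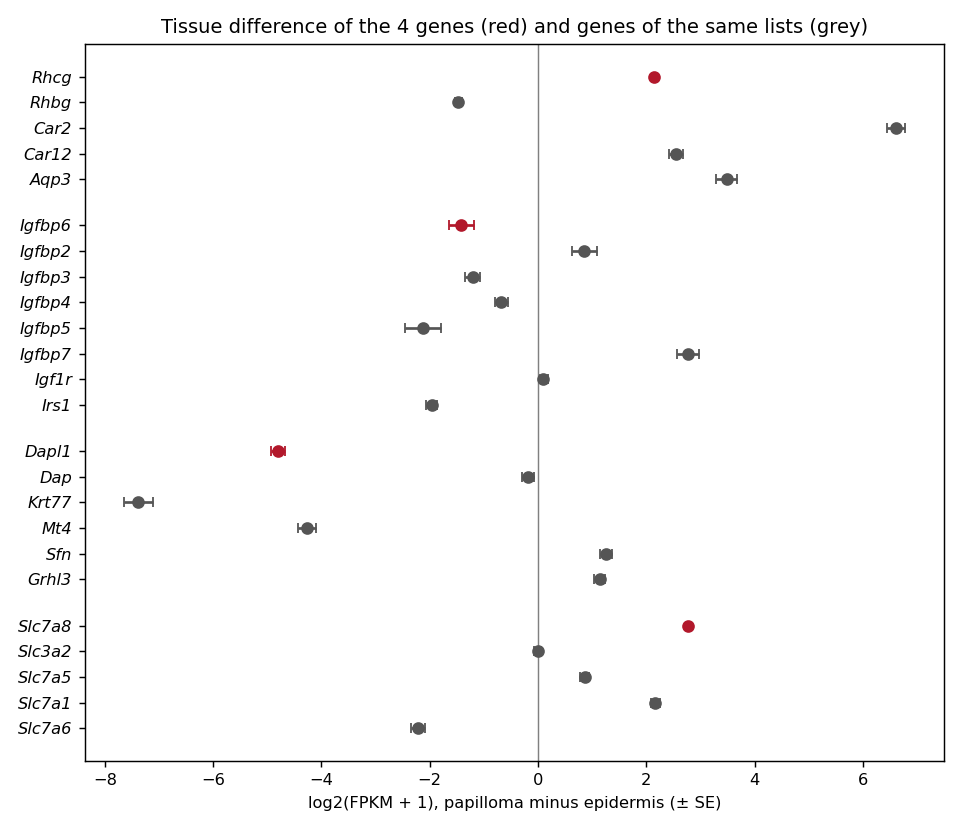
Tissue difference in log2(FPKM + 1), papilloma minus epidermis, for the 4 genes (red) and named genes of the same lists (grey), with bars of 1 SE and a line at 0. Rhcg and Slc7a8, given without a test, have no bar. Car2 and Irs1 also passed the filter through 1 tissue, and the bars they keep stand for no test. Dapl1 (-4.81) and Igfbp6 (-1.42) lie left of 0, and Rhcg (2.13) and Slc7a8 (2.78) lie right of it. Rhbg (-1.47) does not follow Rhcg, and Slc3a2 (-0.01, whose sign turned with scaling) does not follow Slc7a8, while Slc7a5 (0.86) shares its direction. Igfbp3 (-1.21), Igfbp4 (-0.68) and Igfbp5 (-2.12) lie left of 0 as Igfbp6 does, and Igfbp2 (0.85) and Igfbp7 (2.77) lie right of it.

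The genes nearest to each of the 4 were found by the root-mean-square difference of log2(FPKM + 1) over the 12 libraries, with each gene centred on its own mean. Among 12078 genes with a value in all libraries, those nearest to Rhcg were Csf3 (0.32), Abpb (0.33), Ttc34 (0.35) and Fam129a (0.35), where Rhcg itself varied by 1.13 about its mean. Csf3, which encodes the cytokine G-CSF, averaged 2.89 FPKM in papilloma CWO and 3.41 FPKM in papilloma vehicle, and at most 0.0162 FPKM in an epidermis group. Nearest to Slc7a8 were Artn (0.17), Xdh (0.18), Lgi2 (0.21) and Rab31 (0.21), beside a variation of 1.41 for Slc7a8. Artn, which encodes the neurotrophic factor artemin, had 7.36, 7.69 and 7.92 FPKM in papilloma CWO and 8.53, 8.42 and 7.68 FPKM in papilloma vehicle, which overlap, unlike Slc7a8. Nearest to Igfbp6 were Cd209f (0.26), Neurl1a (0.32), Nctc1 (0.32) and Akr1c14 (0.33), beside 0.99 for Igfbp6. Cd209f, a C-type lectin gene of the DC-SIGN family, had 2.57, 0.43 and 0.88 FPKM in epidermis CWO and 8.37, 5.25 and 2.09 FPKM in epidermis vehicle, again highest in vehicle libraries 1 and 2. Nearest to Dapl1 were Cd3g (0.33), Tesc (0.34), Phospho1 (0.34) and Cldn23 (0.35), beside 2.43 for Dapl1. Cd3g, which encodes a chain of the T cell receptor complex, averaged 0.861 FPKM in papilloma CWO and 2.04 FPKM in papilloma vehicle, against 55.7 FPKM in epidermis CWO and 66.1 FPKM in epidermis vehicle. These likenesses mostly follow the difference between tissues, which the libraries of each tissue share.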

How the data were processed

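The submitters' processing notes name bcl2fastq 1.8.4, the aligner TopHat2 2.0.4, Cufflinks 2.0.2, DESeq and the build mm9. Each library's deposited file holds FPKM, an interval and a status for every gene, and values whose status was not OK were left out. Rows sharing a symbol, 248 symbols, were added up. The authors' comparison tables give a normalised mean count per group (a signal), its ratio (fold) and log2 value, and a p-value, per the file headers. Fragments were recovered from FPKM and its interval, taken as 2 SD of a count: 68.2% to 69.5% of values below 500 fragments were whole within 0.02. The 4 genes, lists, tests and alternatives were chosen with earlier results of these data known.

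Tests used limma 3.58.1 in R 4.3.3, with a trend on the mean level, on log2(FPKM + 1), two-sided, for genes reaching an FPKM of 1 in 3 or more libraries fitted, at a Benjamini-Hochberg adjusted p under 0.05. A pseudocount of 1 understates changes of low genes. The pipeline was tested on simulated data. Genes named beside the 4 were fixed relatives, up to 4 further called members of each list by p, and the 4 nearest genes. Alternatives were pseudocounts of 0.1 and 3, no filter, median-ratio scaling, replicate blocks, other sets of libraries and each library left out. Added after seeing the data were values of any status, limma-voom on recovered fragments, leaving out the muscle-rich epidermis vehicle libraries 1 and 2, and all alternatives of the difference between the oil effects. Sequences are from RefSeq, build GRCm38.p6, and expression positions are mm9, 1-based.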

Additional observations from a re-analysis of the deposited data

Results flagged for a closer look

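The oil effect differed between the tissues for 2 of 15 tested genes of the acid-base list, by limma's test of the difference itself over 12 libraries, beside 95 of 13224 genes (0.718%) in all. For Car9 the log2 effect in papilloma minus that in epidermis was -1.38 ± 0.269 (SE, limma adjusted p = 0.0436). Car9 had 2.00, 2.14 and 1.52 FPKM in papilloma CWO and 2.27, 1.32 and 1.96 FPKM in papilloma vehicle, which overlap. It had 4.51, 5.70 and 2.99 FPKM in epidermis CWO and 0.83, 0.99 and 1.19 FPKM in epidermis vehicle, which do not overlap. For Slc16a1 the difference was -0.76 ± 0.152 (SE, limma adjusted p = 0.0463). Slc16a1 had 39.4, 37.2 and 37.8 FPKM in papilloma CWO and 42.2, 38.8 and 37.8 FPKM in papilloma vehicle, against 30.2, 27.7 and 26.8 FPKM in epidermis CWO and 15.2, 15.4 and 20.4 FPKM in epidermis vehicle. Over 20 alternatives, chosen after seeing the data, each gene missed the threshold in 14, and neither sign turned. Leaving out any 1 library ended the call of either gene, except epidermis CWO 3 and epidermis vehicle 3 for both genes and papilloma vehicle 2 for Car9. Without epidermis vehicle libraries 1 and 2 the differences were -1.24 for Car9 (limma adjusted p = 0.371) and -0.50 for Slc16a1 (limma adjusted p = 0.392), with the lone vehicle library assumed to vary like the other groups. The adjusted p ran between 0.00814 and 0.371 for Car9 and between 0.00460 and 0.392 for Slc16a1 over the alternatives. Skeletal muscle RNA was high in epidermis vehicle libraries 1 and 2, and its part in these values was not tested.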

How the results depend on the processing

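Igfbp6 and Dapl1 kept the direction and the call of their tissue difference in all 22 alternatives, and their oil effects in epidermis kept their direction in all 15. In epidermis 233 genes passed, against 33 with no filter, 26 with the replicate block, 637 with all 12 libraries in one fit and 11 without the muscle-rich vehicle libraries 1 and 2. Leaving out each library gave 51 to 653. Dropping vehicle library 1 left 80, vehicle library 2 left 100 and vehicle library 3 left 653. Dropping CWO library 1 left 51, CWO library 2 left 78 and CWO library 3 left 300. In papilloma 1 gene passed, against 0 with a pseudocount of 3, no filter, median-ratio scaling or limma-voom, 5 with the replicate block and 0 to 1 with a library left out. The 433 genes lower in every CWO papilloma library became 815 with no filter and 595 to 1588 with a library left out, where fewer libraries have to be separated. The change exceeded 1.5 times for each library except vehicle library 2. Same-numbered libraries correlated in their deviations at 0.02, -0.42 and -0.34 in epidermis and 0.26, 0.15 and 0.03 in papilloma. Not every library correlated best with its own number. With 3 libraries per group this cannot decide whether the numbers pair libraries. The block left 10294 tissue calls beside 10452. Slc3a2 in epidermis was -0.003464 with median-ratio scaling, -0.0303 with limma-voom and -0.14 without vehicle libraries 1 and 2. In that setting Igf1r was -0.0729, Igfbp5 0.40 and Igfbp7 0.0658 (log2). Leaving out a library gave -0.0539 to 0.0883 for Slc3a2 and -0.0187 to 0.137 for Igf1r. Between tissues Slc3a2 was 0.10 with median-ratio scaling, 0.0705 in vehicle libraries, 0.0379 with limma-voom and -0.0397 to 0.0333 with a library left out. The cause was not tested. Igfbp6 and Rhcg rest on 26 to 216 papilloma fragments per library, which limits the precision of their levels.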
